A study of Homo sapiens with 24 samples.

Results

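The uninduced state of the human esophageal neuroendocrine carcinoma line TYUC-1 was measured in 6 of the 24 RNA sequencing libraries of the series. These are the libraries labelled day 0: 3 of a line engineered to express TAp63 (genotype label i-TAp63) and 3 of a line engineered to express ΔNp63 (i-DNp63). Columns of the count table were assigned to libraries by the sample number that stands at the start of each column header and in each sample's description. All 6 cultures had received the vehicle DMSO for 6 days and no doxycycline, the drug that switches the construct on and that the induced libraries received at 1 µg/ml for 1, 3 or 6 days. The treatment label also names EPZ-6438, which blocks the histone methyltransferase EZH2, at 0 days in all 6, so neither drug differs between the lines at day 0. Cells were grown in suspension in DMEM/F12 with serum. The labels do not say whether each engineered line is a clone or a pool, and parental TYUC-1 cells were not analysed here, so a difference between the lines cannot be told apart from a difference between the cells that founded them. The replicates are described as biological without saying how the cultures were kept apart, and p-values therefore measure the spread between these libraries.

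Neuroendocrine carcinomas are high-grade tumors that are recognised by proteins of secretory granules and synaptic vesicles, such as chromogranin A (CHGA) and synaptophysin (SYP), and by the zinc finger factor INSM1. In small cell carcinoma of the lung, tumors are grouped by the transcription factor that dominates, among them NEUROD1 in neuroendocrine tumors, POU2F3 in tumors that share genes with tuft cells, and YAP1 in others. Tuft cells are rare chemosensory cells of airway and gut epithelium that depend on POU2F3, whereas TP63 marks the basal cells of squamous epithelium.

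Levels are given as counts scaled to library size (CPM) with edgeR's TMM adjustment. The deposited counts cover whole gene spans, introns included. For comparisons between genes they were therefore also divided by exonic length, which gives CPM per exonic kb. Totals at day 0 ran from 6755662 to 20977266 counts per library. The table lists 28278 genes, of which 14693 had enough counts in these libraries to be tested. Fragments that overlap more than 1 gene were left out of the counts. Of 3985 genes with under 10% of their exonic bases free of other genes, 93.4% had no count, against 11.5% of the 18972 genes with at least 90% free. A 0 for a gene of the first kind, such as SOX2 inside SOX2-OT, BMI1, ZNF750 and SCG5, therefore says nothing about its expression.

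TP63 itself was at a few CPM before induction. It stood at 2.93, 2.90 and 2.97 CPM in replicates 1, 2 and 3 of the TAp63 line and at 4.94, 3.97 and 4.13 CPM in the ΔNp63 line, which gives 2.93 ± 0.0361 and 4.35 ± 0.517 CPM (SD, n = 3). The libraries of the lines did not overlap, but the difference, a log2 value of -0.56 ± 0.20 (SE), did not pass the edgeR test (adjusted p = 1.00, and 0.303 with the replicate number as a block). After induction the TP63 groups had means from 371 to 926 CPM, so the uninduced level was a small part of the induced level in both lines. The counts sum all TP63 isoforms and cannot assign the uninduced reads to TAp63 or ΔNp63, nor to the endogenous gene or the construct.

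Transcription factors that mark carcinoma subtypes were unevenly represented. POU2F3 (chr11:120236638-120319945, hg38) was at 192, 216 and 244 CPM in the TAp63 line and 183, 196 and 210 CPM in the ΔNp63 line. NEUROD1 was low at 3.53 ± 1.17 CPM (SD, n = 6), YAP1 lower still at 1.71 ± 0.399 CPM, and ATOH1 had 0 counts in the 6 libraries together, which allows up to 0.0330 CPM by a limit of 3 counts. Per exonic kb the order was the same, at 31.1 CPM per kb for POU2F3, 1.07 for NEUROD1 and 0.272 for YAP1. This limit and the 95% exact Poisson intervals below cover counting error only. The libraries were of cells in bulk, and in such data fewer cells of a kind and less RNA per cell cannot be told apart.

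Genes of the tuft cell list were widely present. Of the 37 members in the table, 24 reached 20 CPM and 8 were under 1 CPM. Over all 28278 genes, 8525 reached 20 CPM and 14418 were under 1 CPM. The highest member by CPM was KIT, the receptor of stem cell factor, which ran from 361 to 404 CPM over the 6 libraries. AZGP1, a secreted zinc-binding glycoprotein, ran from 293 to 413 CPM. SOX9, an epithelial progenitor factor, ran from 316 to 359 CPM. Per exonic kb the order of these 3 was AZGP1 at 128, SOX9 at 86.2 and KIT at 67.9 CPM per kb. Signaling genes of the list included PLCG2 at 283 ± 32.1 CPM, VAV1 at 181.5 ± 18.5 CPM, the leukotriene enzyme gene ALOX5 at 162 CPM and the kinase gene BMX at 69.0 ± 6.74 CPM (SD, n = 6). Among its transcription regulators were MYB at 113 ± 6.11 CPM, GFI1B at 84.9 ± 11.5 CPM, FOXI1, better known from ionocytes, at 57.3 ± 6.10 CPM, and ASCL2 at 22.7 ± 2.90 CPM. The POU2F3 coactivator genes COLCA2 and C11orf53 stood at 115 ± 13.1 and 51.3 ± 12.97 CPM, although only 43.6% of the exonic bases of COLCA2 are free of its neighbour COLCA1. AVIL, an actin-binding gene of tuft cells, stood at 29.7 ± 6.38 CPM. LRMP, also a tuft gene, stood at 248.6 ± 11.999 CPM. Not all of the list was present: the taste channel TRPM5 was at 1.96 ± 0.362 CPM, DCLK1 at 0.881 CPM, and CHAT, IL25 and HPGDS had 1, 2 and 7 counts in the 6 libraries together.

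POU2F3 belongs to the POU family, whose members bind the octamer ATGCAAAT. Of 26 tuft list genes with a RefSeq promoter in the reference table (GRCh38.p14), 2 held this octamer on either strand within the 250 bases before the gene start, AZGP1 and HMX2, against 454 of all 27305 promoters (1.66%). The neuroendocrine list below had the octamer in a similar share, in 2 of 29 promoters (CALCA and HES6). The AZGP1 sequence is shown because AZGP1 was the more abundant of the 2 (minus strand, chr7:99976032-99976281, written 5′ to 3′ toward the start, with the octamer, read here on its other strand, in capitals). The match begins at position -185, counted back from the start. It is a match of letters and not a measured binding site. No octamer was found in the other 24 windows, and the table holds no entry for POU2F3.

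AZGP1: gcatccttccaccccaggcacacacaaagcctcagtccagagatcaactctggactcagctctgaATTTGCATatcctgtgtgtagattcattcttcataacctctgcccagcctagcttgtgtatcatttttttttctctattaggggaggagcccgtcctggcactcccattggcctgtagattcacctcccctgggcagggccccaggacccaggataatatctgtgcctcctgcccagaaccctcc

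The neuroendocrine list was sparser than the tuft list. Of its 44 members, 12 reached 20 CPM and 23 were under 1 CPM, and among those with at least 90% of exonic bases free the corresponding counts were 12 and 20 of 39. CHGA stood between 0.247 and 0.616 CPM in the 6 libraries and INSM1 between 0.165 and 0.568 CPM. Each rested on 37 counts over all 6, a pooled 0.407 CPM with an interval from 0.286 to 0.560. CHGA is also annotated on an alternate contig, where fragments that align equally well to both copies would be lost if the contig was in the index, which is not given in the sources used here. SYP, the synaptic vesicle marker, was at 3.56 ± 0.823 CPM and NCAM1, which encodes the adhesion molecule CD56, at 3.08 ± 1.40 CPM (SD, n = 6). Secretory and synaptic genes SCG2, STMN2, GRP and SNAP25 were at or under 0.0838 CPM. The list's highest members by CPM were ENO2, the neuronal enolase, at 555.4 ± 33.2 CPM, UCHL1, a ubiquitin hydrolase of neurons, at 122.8 ± 13.2 CPM, and the homeobox factor PROX1 at 121 ± 6.14 CPM. Per exonic kb ENO2 and UCHL1 were also highest, at 132.8 and 61.3 CPM per kb, followed by HES6 at 36.7, CPE at 32.1 and SEZ6L2 at 25.4, and PROX1 was lower at 13.7. Others above 20 CPM were ST18 at 86.6 ± 14.1 CPM, HES6 at 64.9 ± 9.34 CPM, DLL3, an inhibitory Notch ligand and drug target in neuroendocrine tumors, at 22.2 ± 3.69 CPM, and chromogranin B (CHGB) at 20.3 ± 2.68 CPM. NEFL, the light neurofilament gene from the separate neuronal list, stood at 622 ± 69.4 CPM. It was the highest of that list's 21 members, of which 3 reached 20 CPM and 14 were under 1 CPM. Among the latter were MAP2 at 0.721 CPM, DCX at 0.0444 CPM and GAP43 at 0.0109 CPM. By these markers the name neuroendocrine was borne out at the RNA level by ENO2, UCHL1, PROX1, DLL3 and CHGB, whereas CHGA and INSM1, which define the class, were at under 1 CPM. The cells are therefore called here the uninduced TYUC-1 lines.

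**Figure D1:**
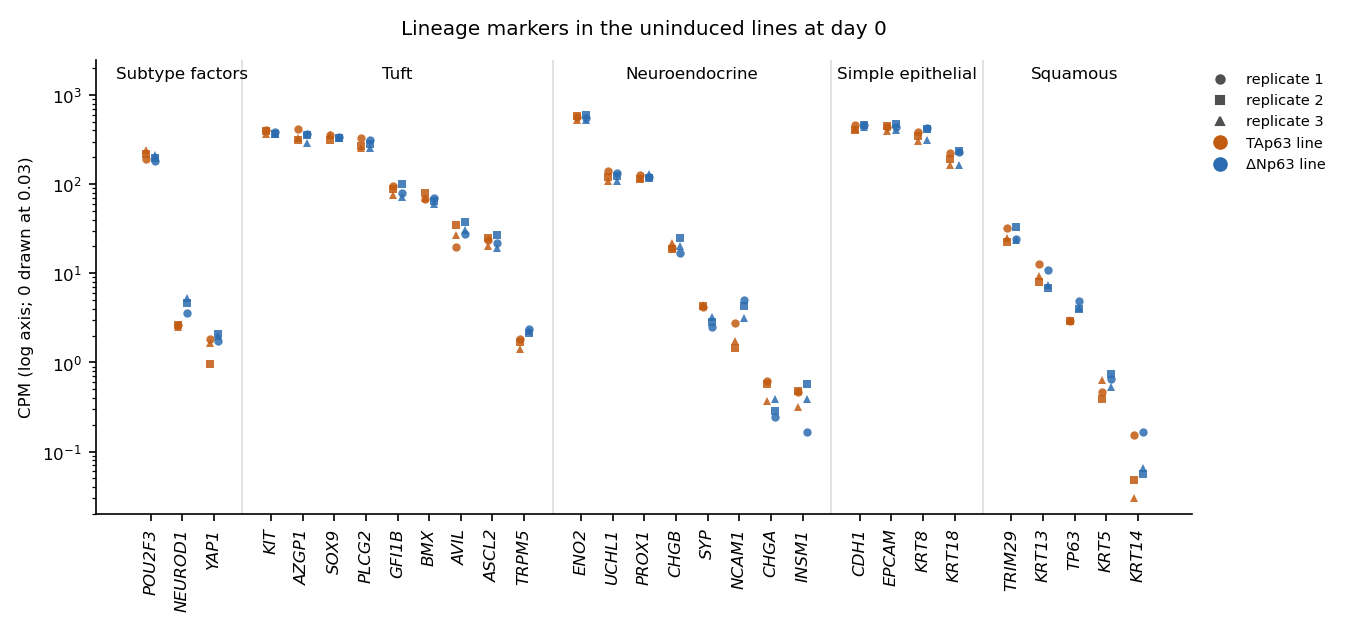
Levels of lineage markers in the 6 libraries at day 0, in CPM on a log axis. Each point is a library: circles, squares and triangles are replicates 1, 2 and 3, orange the TAp63 line and blue the ΔNp63 line, and a 0 is drawn at 0.03. POU2F3 lies far above NEUROD1 and YAP1, and CHGA, INSM1, KRT5 and KRT14 lie under 1 CPM.

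Most simple epithelial genes were high. Of 27 members, 22 reached 20 CPM and 3 were under 1 CPM (CDH17, AP1M2 and KRT20). Among the 22 were the adhesion genes CDH1 at 442 ± 24.96 CPM and EPCAM at 433 ± 28.2 CPM and the keratin genes KRT7 at 408 CPM, KRT8 at 363 ± 52.1 CPM and KRT18 at 201 ± 32.2 CPM. Epithelial regulators above 20 CPM were ESRP1 at 369 CPM, GRHL2 at 213 ± 14.7 CPM, ELF3 at 157 ± 35.2 CPM, EHF at 135 ± 5.13 CPM, OVOL2 at 43.6 ± 3.64 CPM and OVOL1 at 31.5 ± 5.71 CPM. Of 33 gastric and intestinal columnar genes, 1 reached 20 CPM, the pioneer factor FOXA1 at 67.1 ± 5.74 CPM, and 23 were under 1 CPM, including CDX2 and TFF1.

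Markers of basal squamous cells were mixed. KRT5 was at 0.568 ± 0.132 CPM and KRT14 had 6 counts in all. The desmoglein gene DSG3 had no count and KRT6A had 2 counts. In contrast, 11 of the 38 basal squamous genes reached 20 CPM, led by the Notch ligand JAG2 at 282 CPM, the integrin ITGA6 at 197 CPM and PERP at 188 CPM, genes that other epithelia also express. The factors TFAP2A, TFAP2C and TRIM29 stood at 40.4 ± 3.86, 39.1 ± 2.32 and 26.8 ± 4.60 CPM. Of 47 squamous differentiation genes in the table, 10 reached 20 CPM, with ANXA1 at 2001 ± 504 CPM, the cornified envelope gene SPRR1A at 203 ± 44.9 CPM, KLF4 at 126 ± 13.5 CPM and GRHL1 at 33.0 ± 1.31 CPM, while KRT13 was at 9.23 ± 2.24 CPM and IVL had 2 counts.

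The most abundant transcripts were those of metabolism, translation and the cytoskeleton. The 20 genes with the highest CPM held 4.74% of all counts and the top 100 held 12.9%. In order of mean CPM they included GAPDH at 5908 ± 1054, EEF2 at 5107 ± 759, ACTB at 3259 ± 361, RPL8 at 3102 ± 1248, PABPC1 at 3090 ± 162, RPL3, RPL13A, ENO1, ANXA1, LDHB, BSG, RPL4, ALDH1A1, RPLP0, GSN, MYH9, RPS3, HNRNPA2B1 and HSP90AA1 at 1556 ± 237 (SD, n = 6). Per kb of the deposited gene span the leading 20 were short genes, and they included GAPDH, RPL8, ACTB, HSPB1, RPL13AP5, EEF2, RN7SL2, RPL13A, RPS16, ATF4, RPS21, RPL3, PFN1, RPLP0, RPL36, RPS2, SLC25A5, TMSB4X and OAZ1, from 1533 CPM per kb for GAPDH down to 318 CPM per kb for OAZ1. RPL13AP5 is a copy of RPL13A, and reads of such near-identical genes are uncertain. Other genes of restricted expression at high levels were ALDH1A1, a retinaldehyde dehydrogenase, at 1722 ± 229 CPM, CA9, the hypoxia-responsive carbonic anhydrase, at 1294 ± 177 CPM, and LYZ, the lysozyme gene of secretory epithelia and myeloid cells, at 1078 ± 187 CPM.

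Markers of other cell types were checked in the same libraries. The fibroblast list had no member at 20 CPM and 11 of 15 under 1 CPM, with COL1A2 and COL3A1 at 2 counts each, although COL1A1 stood at 14.8 ± 3.54 CPM. The endothelial list had none of 10 members at 20 CPM, and PECAM1 was at 0.556 CPM. The immune list had 5 of 18 members at 20 CPM, LYZ, LCP1, IKZF1, CSF1R and CORO1A, while the pan-leukocyte gene PTPRC was at 2.94 ± 1.30 CPM and the T cell gene CD3E had 1 count. Among mesenchymal genes ZEB2 stood at 58.8 ± 6.40 CPM and N-cadherin (CDH2) at 120 CPM, whereas ZEB1 was at 0.643 CPM. HOX genes of posterior position were measurable, including HOXC10 at 85.2 CPM and HOXA13 at 29.7 CPM. Among polycomb genes EZH2 stood at 189 ± 15.2 CPM.

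Replicate 1 of both lines stood apart in erythroid genes. The fetal globin gene HBG2 was at 24.5, 1.06 and 0.425 CPM in replicates 1, 2 and 3 of the TAp63 line and at 30.6, 5.22 and 0.131 CPM in the ΔNp63 line. VIM, the mesenchymal intermediate filament gene, followed the same order at 15.7, 0.870 and 0.212 CPM and at 21.6, 3.07 and 0.197 CPM. HBE1, HBG1, PRKCB, STAT5A, RHAG and APOE were likewise highest in replicate 1 of each line. The summed level of the erythroid and megakaryocyte list was 114, 44.2 and 41.1 CPM in the TAp63 line and 145.5, 64.0 and 45.4 CPM in the ΔNp63 line. All 12 tested members of the list were fitted higher in the ΔNp63 line, with a median log2 difference of -0.63, and none was called. HBG1 and HBG2 are near-identical and their split is uncertain. The same genes were far higher in a library of another group, replicate 3 of the ΔNp63 line at day 1, which held 1727 CPM of HBG2 and 834.7 CPM of VIM in a total of only 1530847 counts. HBG2 and VIM were under 1 CPM in replicate 3 of both lines, whereas the summed list level there was close to that of TAp63 replicate 2. The part of these transcripts in the line differences below was not tested.

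**Figure D2:**
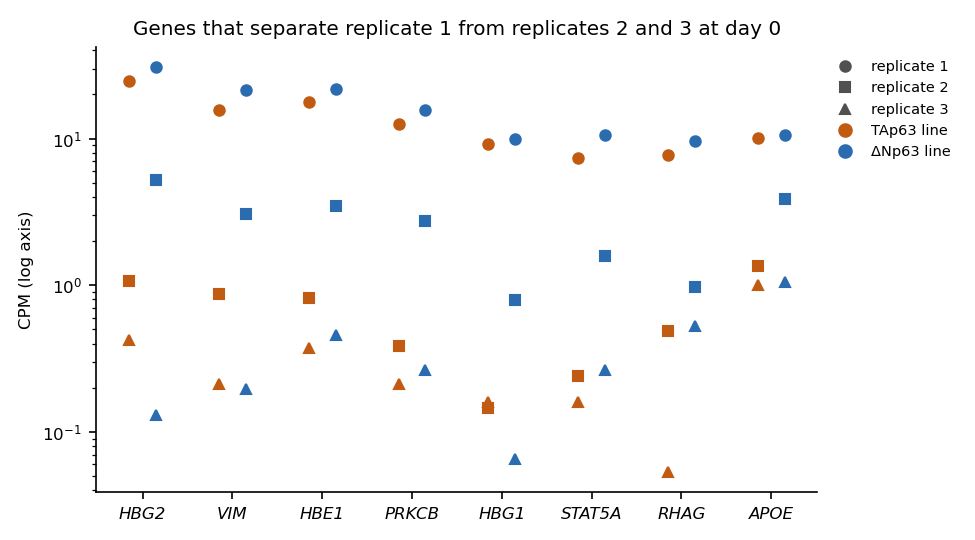
Levels of 8 genes that separated replicate 1 (circles) from replicates 2 (squares) and 3 (triangles) at day 0, in CPM on a log axis, with the TAp63 line in orange and the ΔNp63 line in blue. In both lines replicate 1 is the highest for each of the 8 genes, as for HBG2 at 24.5 and 30.6 CPM.

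The lines differed in few genes. Fitted on the 6 libraries without pairing, the edgeR quasi-likelihood test called no gene (0% of 14693 tested, lowest adjusted p = 0.0886), 203 genes (1.38%) had an unadjusted p under 0.05, and DESeq2 called 11. The median log2 difference over all tested genes was 9.60e-05. Libraries with the same replicate number deviated together, so the number was also entered as a block. The paired fit called 73 genes (0.497%), 39 higher in the TAp63 line (0.265%) and 34 higher in the ΔNp63 line (0.231%), of which 17 differed by at least a log2 value of 1. It has only 2 residual degrees of freedom. A paired fit over 23 libraries, which adds the induced libraries other than replicate 3 of ΔNp63 day 1 and has 13 residual degrees of freedom, called 27 genes (0.171% of 15783 tested). The genes called by both paired fits numbered 26 (0.177%), 20 higher in the ΔNp63 line and 6 higher in the TAp63 line. The account below is of these 26, which were singled out after their values had been seen, because the rule fixed for naming genes rests on the unpaired fit and named none. All 26 had the same direction in each of the 3 pairs, which is a description only, since the paired fits select for it. The median differences in log2(CPM + 0.5) of the 20 were -0.82, -0.99 and -0.84 in pairs 1, 2 and 3, and those of the 6 were 0.82, 0.95 and 1.40.

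**Figure D3:**
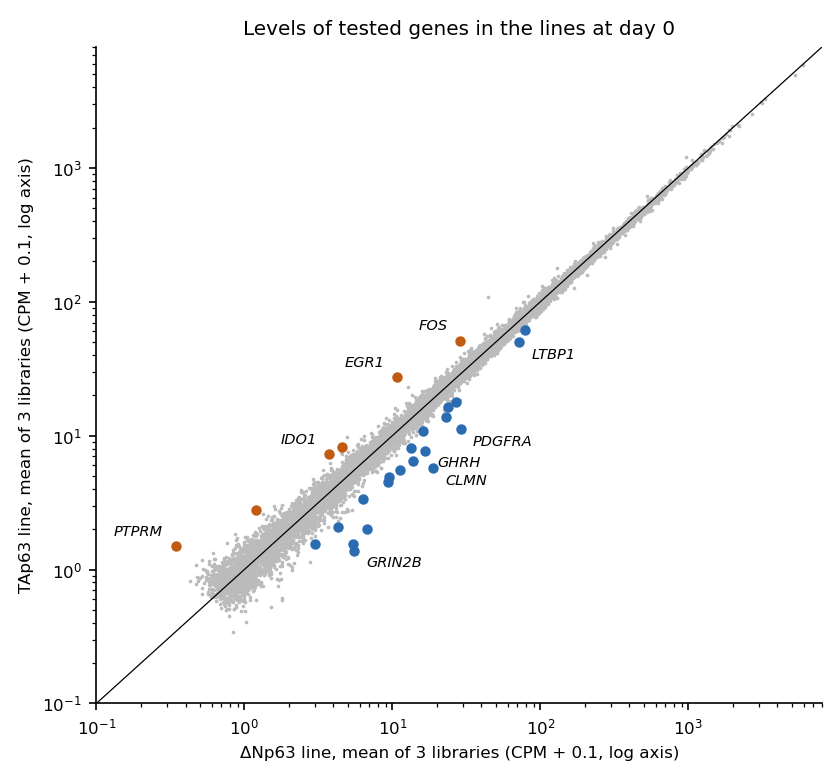
Mean CPM of the 3 TAp63 libraries against that of the 3 ΔNp63 libraries at day 0 for the 14693 tested genes (grey), with 0.1 added, on log axes with the line of equality. The 26 genes called by both paired fits are coloured, 20 blue points higher in the ΔNp63 line and 6 orange points higher in the TAp63 line. GTF2IP1, the grey point far above the line near 100 CPM, was high in a single TAp63 library and was not called.

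The 20 genes higher in the ΔNp63 line included 2 transcriptional regulators and the neuronal genes GRIN2B and NCAM1. GRIN2B (chr12:13537337-13980356), which encodes a subunit of the NMDA glutamate receptor, was at 1.54, 1.26 and 1.06 CPM in the TAp63 line and 4.77, 4.202 and 7.22 CPM in the ΔNp63 line, a log2 difference of -2.14 ± 0.24 (SE, adjusted p = 6.70e-05 in the paired edgeR fit). POU3F2 (chr6:98834574-98839458), a POU factor of neural progenitors also known as BRN2, was at 1.23, 1.89 and 1.27 CPM against 5.19, 5.00 and 5.84 CPM, a log2 difference of -1.81 ± 0.21 (adjusted p = 0.000118). Every ΔNp63 library lay above every TAp63 library for both genes, at levels of a few CPM. DACH1 (chr13:71437966-71867204), a transcriptional corepressor of developing organs, was at 4.47, 4.21 and 4.56 CPM against 9.05, 9.99 and 8.60 CPM, a log2 difference of -1.07 ± 0.15 (adjusted p = 0.000686). NCAM1 was at 2.77, 1.45 and 1.75 CPM against 5.02, 4.32 and 3.15 CPM, a log2 difference of -1.13 ± 0.22 (adjusted p = 0.0178). NCAM1 overlaps an antisense gene, with 86.0% of its exonic bases free, and the counting did not use strand. It was the single call among the 25 tested neuroendocrine genes in the paired fit, which called 0.497% of all tested genes.

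Receptor, adhesion and secreted protein genes were also among the 20. PDGFRA (chr4:54229293-54298247), the alpha receptor of platelet-derived growth factor, was at 8.78, 12.5 and 11.9 CPM in the TAp63 line and 29.9, 28.5 and 28.02 CPM in the ΔNp63 line, a log2 difference of -1.33 ± 0.10 (adjusted p = 7.47e-07 in the paired edgeR fit, and 0.0886 without pairing). KIT, a related receptor gene that lies near it, stood at 369 to 404 CPM and 361 to 381 CPM and was not called. PCDH19 (chrX:100291644-100410273), a protocadherin, was at 1.54, 2.32 and 1.91 CPM against 6.42, 6.93 and 6.43 CPM, a log2 difference of -1.72 ± 0.18 (adjusted p = 4.26e-05). CLMN (chr14:95181940-95319908), which encodes the actin-binding protein calmin, was at 4.62, 4.98 and 7.32 CPM against 16.8, 18.6 and 21.002 CPM, a log2 difference of -1.73 ± 0.12 (adjusted p = 2.47e-07). GHRH (chr20:37251086-37256908), the growth hormone-releasing hormone gene, was at 7.86, 8.85 and 6.10 CPM against 16.3, 19.9 and 13.1 CPM, a log2 difference of -1.12 ± 0.11 (adjusted p = 2.32e-05). For each of these genes the lowest ΔNp63 library was above the highest TAp63 library. The other 12 genes differed by -1.09 (SNTB1, a syntrophin) to -0.36 (FRAS1, a basement membrane protein), and they were HS6ST3, SLC6A15, SDK2, TSPAN7, UBE2QL1, MATK, MAGI2, FAM107B, MARCKS, LTBP1, SNTB1 and FRAS1. In all, 19 of the 20 did not overlap between the lines, where MARCKS was the exception. Over all tested genes, 2.52% were free of overlap in this direction. Because these genes were called on the same libraries, that count is a description.

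The 6 genes higher in the TAp63 line included 2 immediate early genes, which encode transcription factors that rise within minutes of growth factor or stress signaling. EGR1 (chr5:138465479-138469303) was at 21.4, 29.6 and 30.7 CPM in the TAp63 line and 11.6, 11.1 and 9.12 CPM in the ΔNp63 line, a log2 difference of 1.39 ± 0.12 (adjusted p = 2.43e-06 in the paired edgeR fit). FOS (chr14:75278828-75282230) was at 38.8, 58.1 and 56.3 CPM against 26.3, 36.1 and 23.7 CPM, a log2 difference of 0.85 ± 0.10 (adjusted p = 8.66e-05). Neither gene overlapped between the lines, nor did the other 4 of the 6 (2.55% of all tested genes were free of overlap in this direction). Of the 18 tested members of the MYC and immediate early list these 2 were called, where the paired fit called 0.497% of all tested genes. The median log2 difference of the list was 0.03, with 10 members fitted higher in the TAp63 line and 8 in the ΔNp63 line without pairing. JUNB, IER2 and DUSP1 differed by 0.05, -0.01 and 0.13 in the paired fit and were not called. FOSB, EGR3 and JUN differed by 0.22, 0.27 and 0.10 in the unpaired fit and were not called in that fit or the paired fit.

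EGR1 and FOS are both textbook targets of serum response factor, which binds the CArG box, and their promoters are shown to set the called pair side by side (plus strand, GRCh38.p14, RefSeq, the 250 bases before the gene start, 5′ to 3′, with CArG boxes in capitals). The EGR1 window, chr5:138465229-138465478, held 2 CArG boxes, beginning at positions -105 and -83 before the start. The FOS window, chr14:75278578-75278827, held no such letters, which says only that the motif is not in this window. A CArG box on either strand was present in 312 of 27305 promoters (1.14%). Of the 26 genes, 18 had a promoter in the table, and EGR1 alone among them held a CArG box. No measure of binding was made here.

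EGR1: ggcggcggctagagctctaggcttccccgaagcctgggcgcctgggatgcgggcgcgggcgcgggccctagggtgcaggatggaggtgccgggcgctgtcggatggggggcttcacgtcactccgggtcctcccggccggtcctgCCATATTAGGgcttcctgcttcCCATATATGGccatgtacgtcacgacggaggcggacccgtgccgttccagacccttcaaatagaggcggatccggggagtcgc
FOS: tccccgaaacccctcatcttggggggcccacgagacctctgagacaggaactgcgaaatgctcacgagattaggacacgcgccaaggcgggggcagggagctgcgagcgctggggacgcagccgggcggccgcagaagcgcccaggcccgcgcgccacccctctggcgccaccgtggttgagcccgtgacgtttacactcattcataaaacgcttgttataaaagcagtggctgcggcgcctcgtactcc

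The remaining 4 genes higher in the TAp63 line were at low levels. IDO1, which encodes a tryptophan-degrading enzyme, was at 7.70, 6.87 and 7.01 CPM against 3.70, 3.24 and 4.004 CPM, a log2 difference of 0.97 ± 0.16 (adjusted p = 0.00576 in the paired edgeR fit). GSTM1, a glutathione transferase, was at 9.40, 8.17 and 6.74 CPM against 5.27, 4.09 and 3.94 CPM. It belongs to a family of near-identical genes, so its count is uncertain. PAG1, a membrane adaptor of Src-family kinases, differed by 1.31 ± 0.28 (adjusted p = 0.0373). PTPRM, a receptor tyrosine phosphatase, was at 2.003, 1.02 and 1.17 CPM against 0.494, 0.170 and 0.0656 CPM, and its fitted log2 difference of 2.58 ± 0.44 (adjusted p = 0.00701) rests on few counts in the ΔNp63 line.

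**Figure D4:**
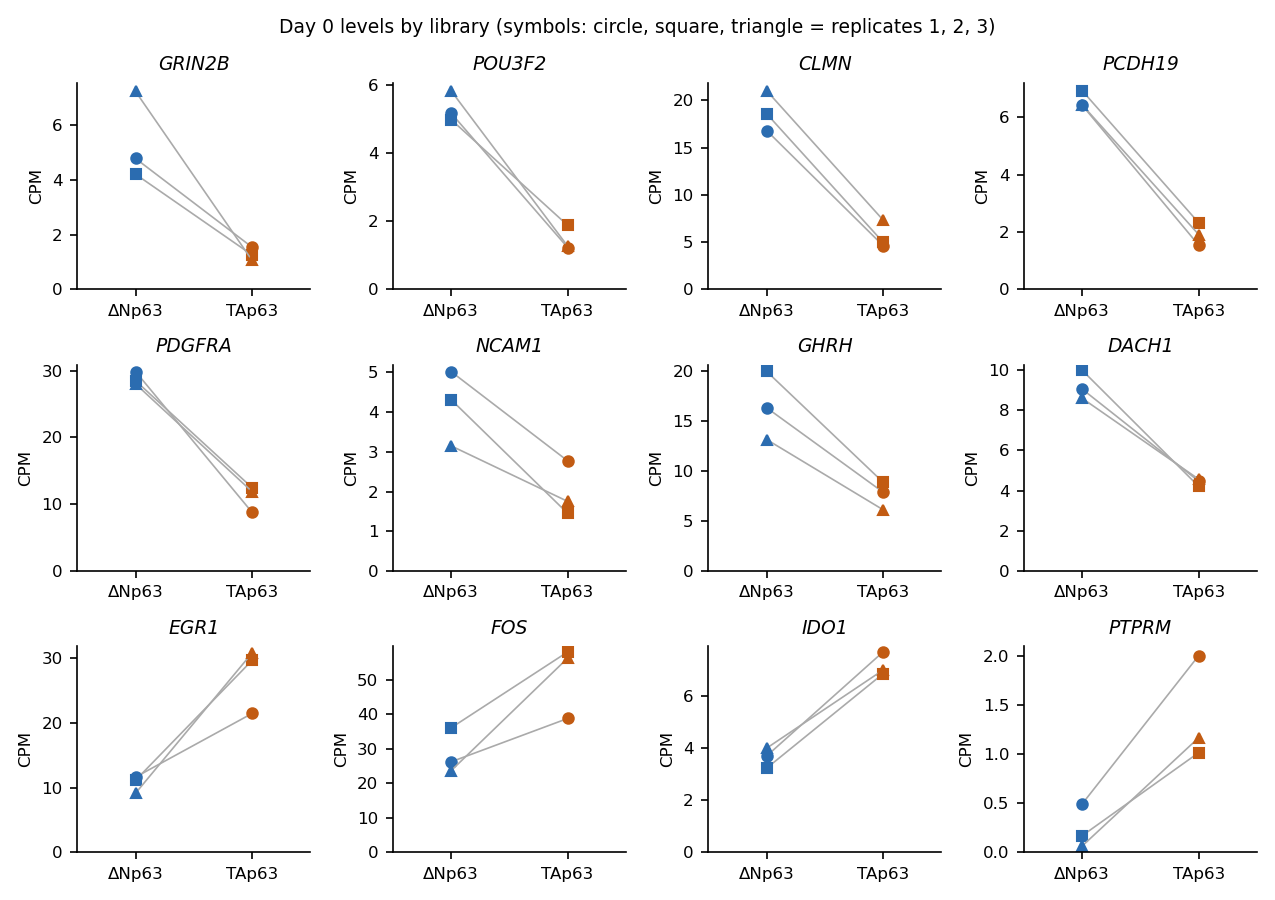
Day 0 levels in CPM of 12 of the 26 genes, each panel on its own axis from 0, with the ΔNp63 line in blue and the TAp63 line in orange. Grey lines join libraries with the same replicate number, and the 3 lines of every panel slope the same way.

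The differences at day 0 were followed into the induced libraries, which did not enter the 6 library fit. There the lines also differ in the p63 isoform they were induced to make, and the 23 library fit used these libraries for its spread. All 20 genes higher in the ΔNp63 line at day 0 had a higher mean log2 level there at days 1, 3 and 6 as well, and all 6 genes higher in the TAp63 line were higher there at each day. Of the 20, 9 were free of overlap at day 1, 18 at day 3 and 17 at day 6, where the shares over all tested genes were 2.44%, 7.29% and 7.19%. Of the 6, 4 were free of overlap at day 1, 6 at day 3 and 6 at day 6, where the shares over all tested genes were 2.51%, 6% and 6.93%. Without replicate 3 of ΔNp63 day 1, the library with the high globin, 19 of the 20 and 5 of the 6 were free of overlap at day 1 (5.1% and 4.55% over all tested genes). The direction at day 1 then still held in 20 of 20 and 6 of 6 genes. In the library left out, 6 of the 20 genes were above all 5 other day 1 libraries, and 0 of the 6 higher in the TAp63 line. The former were POU3F2, DACH1, HS6ST3, MARCKS, LTBP1 and MATK, the last at 71.2 CPM against at most 13.2 CPM.

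PDGFRA, for example, was at 8.17, 6.40 and 6.16 CPM in the TAp63 line and 16.1, 18.5 and 16.7 CPM in the ΔNp63 line at day 3, and at 9.28, 6.88 and 6.67 CPM against 18.8, 20.1 and 17.1 CPM at day 6. At day 1 it was at 10.4, 8.65 and 12.3 CPM against 23.9, 21.7 and 5.99 CPM, and the last value is that of the library that stands apart. POU3F2 was at 1.14, 1.19 and 2.04 CPM against 4.13, 4.39 and 4.58 CPM at day 6. IDO1 was at 4.64, 6.32 and 6.95 CPM against 1.71, 1.73 and 1.90 CPM at day 6. For these 3 genes the libraries of the lines were free of overlap at days 3 and 6. EGR1 was more variable, at 102, 66.6 and 41.0 CPM against 27.2, 23.4 and 22.1 CPM at day 3 and at 42.4, 40.3 and 28.8 CPM against 27.9, 21.4 and 24.96 CPM at day 6. Across all genes, the edgeR fit over 24 libraries found a line difference that changed from day 0 to day 6 in 13 of 15642 genes (0.0831%), none of them among the 73. The paired fit over 23 libraries found such a change in 295 of 15783 genes (1.87%), 5 of them among the 73, and of these LTBP1 and MARCKS are among the 26. NCAM1, FAM107B and HS6ST3, which were free of overlap at day 0, overlapped at day 6, with differences in mean log2(CPM + 0.5) of -0.12, -0.11 and -0.03.

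**Figure D5:**
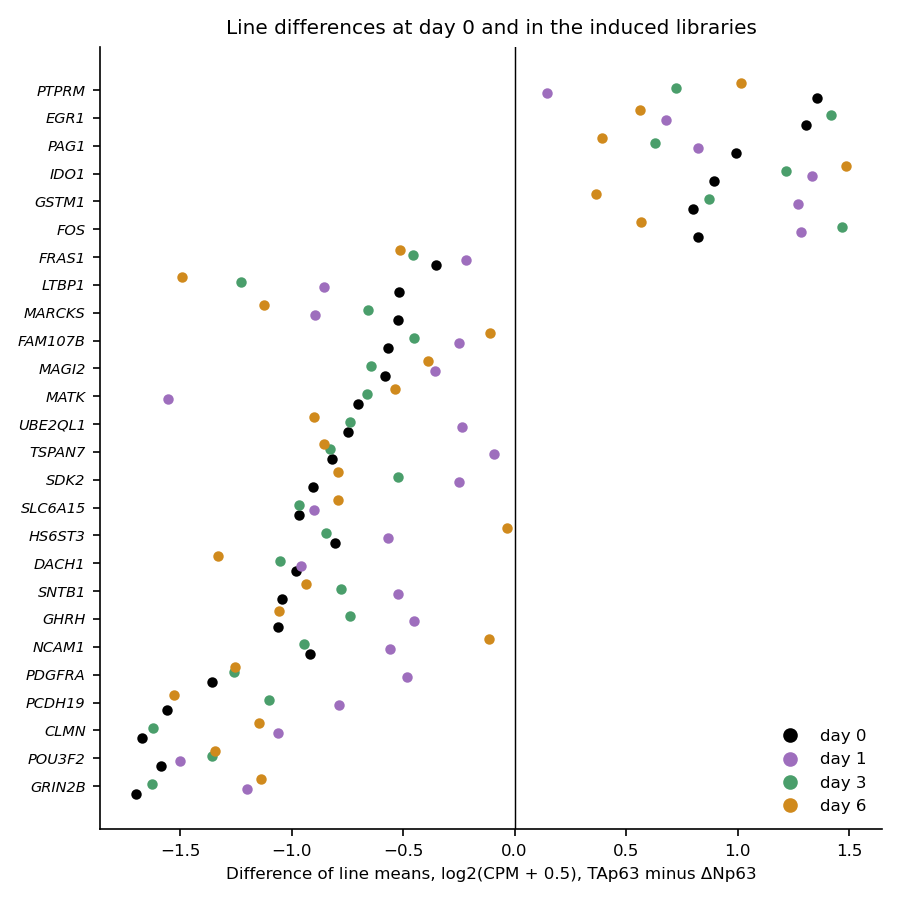
Difference between the line means of log2(CPM + 0.5), TAp63 minus ΔNp63, for the 26 genes at day 0 (black) and in the induced libraries of days 1, 3 and 6 (purple, green and orange). All points of the 20 lower genes lie left of 0 and all points of the 6 upper genes lie right of it.

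The calls made by the 6 library paired fit alone had smaller median differences than the 26 and kept their sign less often in the induced libraries. The 26 also had to pass the 23 library fit, which used those libraries, so this contrast is a description only. Of the 39 genes that the 6 library paired fit called higher in the TAp63 line, 33 were not called over 23 libraries. These 33 had a median log2 difference of 0.41 and a median gene span of 234397 bases. At day 0, 3 of the 33 were free of overlap, against 2.55% of all tested genes in this direction. In the induced libraries 26 of the 33 had the same sign at day 1, 13 at day 3 and 31 at day 6. At these days 2, 4 and 10 were free of overlap, against 2.51%, 6% and 6.93% of all tested genes. The share of counts in genes of at least 200 kb was higher in the TAp63 library of every pair, at 5.52%, 5.27% and 6.20% against 5.36%, 5.09% and 5.93%, and its part in these calls was not tested. Of the 34 genes higher in the ΔNp63 line, 14 were not called over 23 libraries, with a median of -0.71. The same sign was kept by 10, 11 and 10 of these 14 at days 1, 3 and 6. At day 0, 9 of the 14 were free of overlap, against 2.52% of all tested genes in this direction. At days 1, 3 and 6 the numbers were 5, 5 and 8, against 2.44%, 7.29% and 7.19%. BRINP3 was called only over 23 libraries. At day 0 it was highest in replicate 1 of each line. It stood at 0.616, 0.0483 and 0.0531 CPM in the TAp63 line and 2.88, 0.738 and 0.0656 CPM in the ΔNp63 line. In replicate 3 of ΔNp63 day 1, which that fit left out, it was at 91.8 CPM.

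Few members of the gene lists were called between the lines. Of 27 lists, 21 had no member called in the paired fit. Among these was the tuft list, with 30 tested members and a median log2 difference of 0.04. The paired fit called 0.497% of all 14693 tested genes, and at that share most lists of this size would hold no call. The basal squamous list had 23 tested members and a median of -0.04, and the simple epithelial list 24 and -0.06. POU3F2 was the single call in the neuronal list, PDGFRA in the fibroblast and receptor kinase lists, and LYZ in the immune list, at 1058, 1130 and 1405 CPM in the TAp63 line against 894, 904 and 1078 CPM (log2 difference 0.32 ± 0.06, adjusted p = 0.0178 paired and 0.419 over 23 libraries). Among the subtype factors, POU2F3 differed by 0.15 ± 0.06 in the paired fit and was not called (adjusted p = 0.400). NEUROD1 was at 2.62, 2.61 and 2.49 CPM in the TAp63 line and 3.62, 4.60 and 5.25 CPM in the ΔNp63 line, without overlap, and missed the threshold (log2 difference -0.85 ± 0.19, adjusted p = 0.0522 paired). The ATF4 stress list had 25 of 26 tested members fitted higher in the ΔNp63 line and the hypoxia and glycolysis list 23 of 25, with medians of -0.09 for both and no member called. Over all tested genes, 7341 of 14693 were fitted higher in that line.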

How the data were processed

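RNA was extracted with TRIzol, made into NEBNext Ultra libraries and sequenced on a NextSeq, per the labels' protocols. The submitters' processing notes name HISAT2 2.1.0, the build hg38, featureCounts 1.6.1 and DESeq2, the last without a version. Per the file headers, the deposited counts were made by the authors with featureCounts 2.0.0 on the UCSC refGene transcripts of hg38, over whole spans, as pairs, with no option for strand, multi-mapping or overlaps. These raw counts are not normalized.

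Tests were run with edgeR 4.0.16 under R 4.3.3 (filterByExpr, TMM, quasi-likelihood test, Benjamini-Hochberg, calls at adjusted p under 0.05), and DESeq2 1.42.0 served as an alternative. The paired fit has the replicate number as a block. Deviations from the line means of same-numbered libraries correlated at 0.780, 0.536 and 0.837 across 11262 genes, which are not independent replicates. Replicates never agreed within sampling noise (lowest chi-square per degree of freedom 10.3). SE is the absolute log2 difference over the square root of F. Exonic length and overlap came from GENCODE v29 and the deposited gene positions, and promoters from RefSeq. The script was tested on simulated data.

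Named genes were TP63, the subtype factors, the 20 highest by CPM and per kb of span, genes called without overlap, called list members, the leading and defining markers of each list, lineage transcription factors of at least 20 CPM and the genes that vary most between replicates. The members and lists were chosen with earlier results of these data known. Some genes that the rule names are not reported here. Fits with other normalization, filters, tools and libraries are given in the closing section. The paired fits by DESeq2, with other scaling or filter, with pairs or libraries left out, and the day 1 counts without 1 library were chosen after seeing the data.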

Additional observations from a re-analysis of the deposited data

Results flagged for a closer look

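The difference between the lines at day 6 was compared with that at day 0 in a fit over 23 libraries with the replicate block, for the genes called at day 0. A change past the threshold means that the gap between the lines was not the same after induction, when the lines also differ in the p63 isoform expressed.

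For LTBP1, which encodes a protein that binds latent TGF-beta, the log2 difference (TAp63 minus ΔNp63) was lower at day 6 by -0.97 (adjusted p = 2.29e-06). Its ΔNp63 libraries stood at 81.4, 66.2 and 66.1 CPM at day 0 and at 129, 116 and 140 CPM at day 6, while the TAp63 libraries stayed between 42.0 and 55.8 CPM. MARCKS, an actin-regulating substrate of protein kinase C, moved the same way by -0.57 (adjusted p = 0.0349). For LYZ and the immune adaptor gene FYB1 the differences were 0.60 (adjusted p = 0.0170) and 0.56 (adjusted p = 0.0397). LYZ stood at 473, 600 and 646 CPM in the ΔNp63 line at day 6 and at 847, 1282 and 1110 CPM in the TAp63 line. For XACT, a long noncoding RNA, the value was -1.89 (adjusted p = 0.0453). Its mean was higher in the TAp63 line at day 0 (22.98 ± 11.4 against 12.6 ± 5.81 CPM, SD, n = 3) and in the ΔNp63 line at day 6 (75.0 ± 22.6 against 41.6 ± 17.9 CPM). The libraries of the lines overlapped at both days. The day 0 difference of XACT was called in the 6 library paired fit but not in the 23 library paired edgeR fit (adjusted p = 0.788).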

How the results depend on the processing

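The number of genes called between the lines at day 0 depended on the fit. Without pairing it was 0, and it was 0 with RLE size factors, 11 with DESeq2, 6 without the filter on low counts, 2 over all 24 libraries, 7 over 23 libraries, and 0 to 2 when each library was left out in turn (2 without TAp63 replicate 1). With the replicate block it was 73, and 27 with the replicate block over 23 libraries. Relative to those 73, the paired count was 73 with RLE size factors, 241 without the filter, 26 with DESeq2, 6 over all 24 libraries, and 42 to 306 when each pair was left out (306 without replicate 1, 134 without replicate 2, 42 without replicate 3), where 1 residual degree of freedom remains. The 26 genes kept their sign under all of these paired fits, 22 to 26 of them were called without a pair, 15 by DESeq2 and 6 over all 24 libraries. The count for the day 6 minus day 0 difference was 13, and 44 over 23 libraries, 26 with the replicate block, 295 with both, and 6 to 11 when each library was left out. The cause of these shifts was not tested. For single genes no fit reversed a direction. Levels of POU2F3, NEUROD1 and YAP1 moved by less than 1 SD under each scaling. Low counts, as for PTPRM, and 3 libraries per line limit the precision.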

Other observations

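Receptor tyrosine kinase genes at day 0 were led by KIT at 378 ± 17.1 CPM (SD, n = 6), which was also highest per exonic kb at 67.9 CPM per kb. Others were INSR at 328 CPM, IGF1R at 229 CPM, ERBB3 at 188 CPM, DDR1 at 186 CPM and ERBB2 at 164 CPM. MET, the hepatocyte growth factor receptor, was at 109 CPM, while EGFR, often high in squamous epithelium, was at 0.237 CPM and RET at 0.0520 CPM. Of 28 members, 13 reached 20 CPM and 11 were under 1 CPM.

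Notch pathway genes were present on both the receptor and the ligand side. NOTCH2 stood at 433 CPM, NOTCH1 at 103 CPM, JAG2 at 282 CPM and DLL1 at 107 CPM, and the target genes HES1 and HES4 at 37.7 and 26.4 CPM. HES5 and HEY2, also Notch targets, were at 0.0137 and 0.174 CPM. MYC stood at 383 CPM, MYCL at 13.9 CPM and MYCN at 0.230 CPM.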
